A study of Mus musculus with 6 samples.

Results

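The genes described here are 9 interferon response genes, Ifi27, Rsad2, Ifit1, Ifit2, Ifit3, Isg15, Irf7, Usp18 and Mx1, in the livers of mouse pups whose mothers had eaten diets with different oils. They were chosen by name, with earlier results of these data known. Each was read from the brightest array probe annotated to its symbol alone, which gave values for 8 of the 9 genes, of 19938 genes so represented. The table ties Isg15 only to a probe shared with the pseudogene Gm9706, so Isg15 has no value here. Mx1 lay below the signal minimum set for testing, which left 7 of the 9 among the 10977 genes tested.

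Pups of C57Bl6/J mice were compared after 3 isocaloric maternal diets with 6 g% of oil each, which was soybean oil for Control, flaxseed oil for ALA (alpha-linolenic acid) and coconut oil for SFA (saturated fatty acids). The labels also give oleic acid as the main fatty acid of a diet they abbreviate RD and do not explain, so whether RD is the Control diet is not stated. According to the labels the livers were taken within 1 day of birth, and the labels give no genetic alteration or other treatment for any group. Sires ate the diet of their mates only while mating and regular chow otherwise. Each diet had 2 Affymetrix arrays, each hybridised with total RNA from a pool of 3 whole livers, so that no value belongs to a single pup. Nothing in the labels states that the 2 pools of a diet were of separate litters or pups, and p-values here measure only the spread between these arrays, which may be technical.

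Cells that sense viral nucleic acid secrete interferons, which bind receptors on the same and neighbouring cells and act through JAK kinases and transcription factors that include Stat2 and Irf9. These factors bind the interferon-stimulated response element in the promoters of target genes, many of which encode antiviral proteins. In liver, hepatocytes respond to type I interferon, and Kupffer cells, the resident macrophages, are among the cells that can produce it. A low level of target gene expression is kept up without infection by constitutive interferon signalling. The genes described here are commonly used together as a readout of that signalling.

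The promoters are shown because a shared response element is the textbook reason for reading these genes as a group. RefSeq windows on GRCm38.p6, from 250 bases before to 50 bases after a gene's start, were found for 6 of the 9 genes. The core searched was GAAA, any 2 bases and GAAA again, which reads TTTC, any 2 bases and TTTC on the other strand, with overlapping matches counted. It was present in 4 of the 6, namely Ifit1, Ifit3, Rsad2 and Isg15, and in 3.44% of the 32851 windows of that length in the table. Irf7 and both windows of Ifit2 held no match, which says only that these letters are not in those windows. The 3 stretches below are the parts of the windows around the matches in genes with values, run 5′ to 3′ on the gene's strand and carry the matches in capitals. The Ifit1 stretch is chr19:34640770-34640828 on the plus strand, the Ifit3 stretch chr19:34583358-34583431 on the plus strand, and the Rsad2 stretch chr12:26456548-26456587 on the minus strand.
Ifit1: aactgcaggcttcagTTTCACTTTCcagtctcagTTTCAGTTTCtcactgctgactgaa
Ifit3: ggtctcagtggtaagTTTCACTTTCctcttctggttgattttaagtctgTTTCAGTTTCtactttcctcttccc
Rsad2: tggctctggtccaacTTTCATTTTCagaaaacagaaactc
Ifit1 and Ifit3 each had 2 matches with the same letters, TTTCACTTTC and TTTCAGTTTC. Those of Ifit1 lay between 104 and 76 bases before the start and those of Ifit3 between 156 and 113. Rsad2 had 1 match, from 120 to 111 bases before its start. Of the 3 matches of Isg15, each overlapped only the match next to it.

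The interferon response genes moved in different directions. Against Control, Ifi27 fell about 3.1-fold and Rsad2 rose about 2.6-fold on both ALA and SFA, and Ifit2 rose on ALA. Ifit1 had lower values than Control and Usp18 higher values on both diets without passing the test, and Ifit3 and Irf7 overlapped with Control. Of the 7 tested genes 3 were called on ALA, beside 7.93% of all tested genes, with 2 higher (5.11% of all genes) and 1 lower (2.82%). Ifit2, 1 of the 2 higher, had a Control mean of 4.82, below the signal minimum of 5. It entered the test through the other diets, so counts that include it, also in the joint test below, are a description only. On SFA 2 were called, beside 13.8% of all tested genes, with 1 higher (6.62%) and 1 lower (7.15%). An unadjusted p below 0.05 was reached by 5 of the 7 in each comparison with Control, beside 24.7% of all tested genes on ALA and 31.9% on SFA. No gene of the 7 was called between ALA and SFA, where 1.53% of all tested genes were called, and 0 of the 7 had an unadjusted p below 0.05, beside 22.4%. All these calls are from limma at an adjusted p below 0.05 over all tested genes. Tested jointly over the 3 diets with a moderated F statistic, the genes called were Ifi27, Rsad2 and Ifit2, beside 13.5% of all tested genes. Both comparisons with Control use the same 2 Control arrays, so an accident in those arrays enters both.

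**Figure D1:**
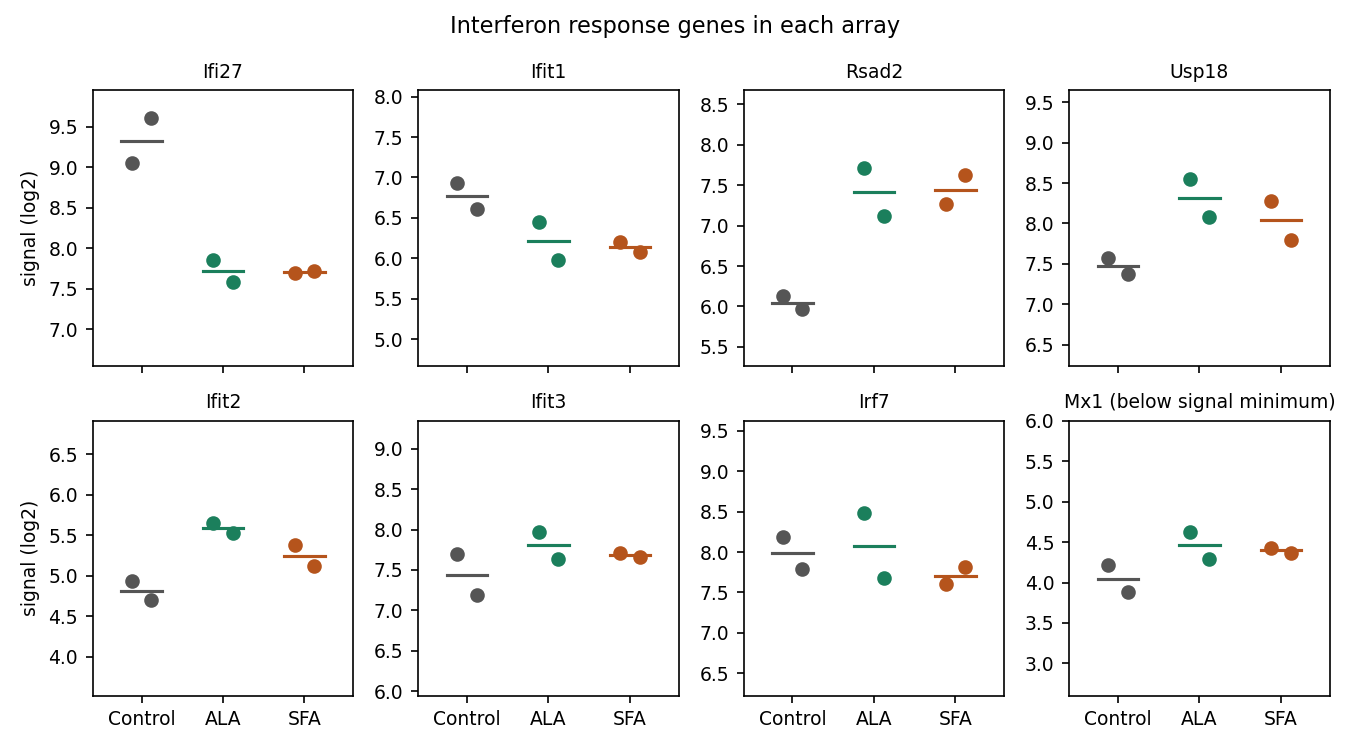
Signal on the log2 scale (vertical axis) of the 8 interferon response genes with a probe of their own, in each of the 6 arrays grouped by diet; points are arrays, lines are group means and every panel spans the same range. Both Control points lie above all others for Ifi27 and Ifit1 and below all others for Rsad2, Usp18 and Ifit2.

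Ifi27 (probe 10397975) encodes a small hydrophobic protein of intracellular membranes. Its log2 signal was 9.05 and 9.61 on the Control arrays, 7.85 and 7.58 on the ALA arrays, and 7.70 and 7.72 on the SFA arrays. Both Control arrays were high, and the 4 arrays of the other diets lay between 7.58 and 7.85. Ifi27 fell by 1.61 on the log2 scale on ALA (SE 0.20, 3.05-fold, adjusted p = 0.0074 by limma, n = 2 arrays per group). It fell by 1.62 on SFA (SE 0.20, 3.07-fold, adjusted p = 0.0060 by limma). Of all tested genes 1.22% had a larger difference on ALA and 1.40% on SFA. ALA minus SFA was 0.0087, with a 95% interval from -0.46 to 0.48. Ifi27 was called under all 15 alternatives in both comparisons with Control, those that left out an array included.

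The name Ifi27 needs care in mouse. In the RefSeq table its span overlaps that of Ifi27l2a, which carries Ifi27 as a synonym, and the gene measured here as Ifi27 was earlier called Ifi27l1. The probe of Ifi27l2a read 5.17 and 4.71 on the Control arrays, 5.73 and 5.30 on the ALA arrays, and 4.53 and 4.97 on the SFA arrays. Its difference on ALA was 0.57 (SE 0.23), which did not pass (adjusted p = 0.19 by limma). Ifi27l2b, the next member of the family, read 6.26 and 6.38 on Control, 5.67 and 5.54 on ALA, and 6.45 and 6.18 on SFA. It fell by 0.72 on ALA (SE 0.14, adjusted p = 0.030 by limma) and was at -0.0063 on SFA. With 1 array left out, the call on ALA was kept only without an SFA array, which is not among those compared. The 3 family members thus had different patterns over the arrays.

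Rsad2 (probe 10399710) encodes viperin, an enzyme that makes a chain-terminating nucleotide against viral polymerases. Its log2 signal was 6.13 and 5.96 on the Control arrays, 7.71 and 7.12 on the ALA arrays, and 7.27 and 7.62 on the SFA arrays. Both Control arrays were lower than every other array. Rsad2 rose by 1.37 on ALA (SE 0.22, 2.58-fold, adjusted p = 0.016 by limma) and by 1.40 on SFA (SE 0.22, 2.64-fold, adjusted p = 0.012 by limma). ALA minus SFA was -0.030, with a 95% interval from -0.55 to 0.49. The call on ALA was lost when the first Control array (adjusted p = 0.054 by limma), the second (0.088) or the first ALA array (0.051) was omitted. The call on SFA was lost without Control replicate 2 (0.072) and without SFA replicate 2 (0.073). The difference stayed between 1.07 and 1.66 over all alternatives on ALA and between 1.22 and 1.58 on SFA. Cmpk2, which lies beside Rsad2 and is also a known interferon target, did not follow it. It read 5.57 and 5.24 on Control, 5.08 and 5.19 on ALA, and 5.81 and 5.37 on SFA.

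The Ifit genes encode proteins that bind foreign RNA and block its translation. Ifit2, Ifit3 and Ifit1 lie in that order in a cluster on chromosome 19. Ifit2 (probe 10462613) read 4.93 and 4.70 on the Control arrays, 5.66 and 5.52 on the ALA arrays, and 5.37 and 5.11 on the SFA arrays. The groups followed each other without overlap, with Control lowest and ALA highest. Ifit2 rose by 0.77 on ALA (SE 0.15, 1.71-fold, adjusted p = 0.029 by limma), a call lost when either Control array or either ALA array was left out (adjusted p from 0.056 to 0.14). On SFA it was at 0.43 (SE 0.15) and did not pass (adjusted p = 0.105). Its Control mean of 4.82 lay below the minimum of 5, so it entered the test through the other diets.

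Ifit1 (probe 10462623) went the other way from Ifit2. It read 6.93 and 6.61 on Control, 6.44 and 5.98 on ALA, and 6.20 and 6.08 on SFA, so both Control arrays were above all others. The difference was -0.56 on ALA (SE 0.19, adjusted p = 0.13 by limma) and -0.63 on SFA (SE 0.19, adjusted p = 0.073), and neither passed. Ifit3 (probe 10462618) read 7.69 and 7.19 on Control, 7.97 and 7.64 on ALA, and 7.71 and 7.66 on SFA, and Control overlapped with ALA. Its differences of 0.36 and 0.24 (SE 0.20) did not pass (adjusted p = 0.31 and 0.43). Ifit1 and Ifit3, whose promoter windows above hold the same 10-letter matches, thus differed in sign in both comparisons. Without Control replicate 2 Ifit3 was at -0.00445 on SFA. Ifit3b, a close copy of Ifit3, was measured by its own probe between 3.19 and 3.75, and how far probes of the copies cross-hybridise was not tested.

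Usp18 and Irf7 act on the signal itself. Usp18 encodes the protease that removes Isg15 from proteins and an inhibitor of the type I interferon receptor. Its probe, 10541307, read 7.58 and 7.38 on Control, 8.55 and 8.08 on ALA, and 8.28 and 7.79 on SFA. Both Control arrays were lower than the rest. The difference of 0.84 on ALA (SE 0.22, 1.78-fold) did not pass (adjusted p = 0.066 by limma), nor did that of 0.56 on SFA (SE 0.22, adjusted p = 0.13). On ALA it passed with a higher signal minimum (adjusted p = 0.0495) and with an intensity trend and robust prior (0.039).

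Irf7, the factor that amplifies type I interferon production, showed no separation by diet. Its probe, 10569102, read 8.19 and 7.79 on Control, 8.48 and 7.68 on ALA, and 7.61 and 7.81 on SFA. The ALA duplicates lay 0.80 apart, more than any difference between diet means. The differences were 0.09 on ALA and -0.28 on SFA (SE 0.27, adjusted p = 0.87 and 0.52 by limma). The sign on ALA turned without Control replicate 2 (-0.11) and without ALA replicate 1 (-0.31).

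Mx1 encodes a GTPase against orthomyxoviruses, and the RefSeq table lists it in C57BL/6J as a transcribed pseudogene. Its probe, 10441233, read 4.21 and 3.89 on Control, 4.63 and 4.29 on ALA, and 4.43 and 4.37 on SFA. The Y-linked genes Eif2s3y, Uty and Kdm5d read up to 4.42 on the SFA arrays, which had no Y-linked signal above that, so the Mx1 values are near what an unexpressed gene can read here. Mx2, also a transcribed pseudogene in that table, read 3.43 to 4.61.

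**Figure D2:**
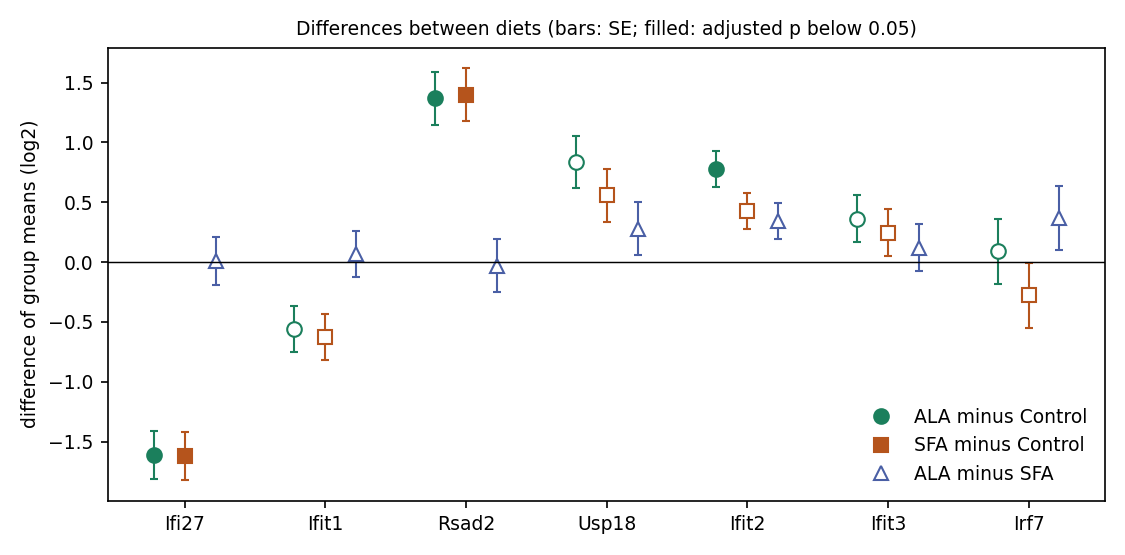
Difference of group means on the log2 scale (vertical axis) for the 7 tested genes in the 3 comparisons; bars are SE, filled symbols have an adjusted p below 0.05 and open symbols do not. Ifi27 and Ifit1 lie below 0 and Rsad2, Usp18 and Ifit2 above 0 in both comparisons with Control, and every ALA minus SFA symbol is open.

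Both Control arrays were above all 4 others for Ifi27 and Ifit1 and below all 4 for Rsad2, Ifit2 and Usp18. Over all tested genes the shares were 18.5% above and 16.0% below, so that separation of Control was common in these arrays. The Control and ALA arrays did not overlap for 5 of the 7 genes, beside 55.0% of all tested genes, with 3 higher (27.0%) and 2 lower (28.0%). Control and SFA did not overlap for 5 either, beside 64.2%, with 3 higher (28.6%) and 2 lower (35.7%). ALA and SFA did not overlap for 1 gene, Ifit2, beside 55.8%. The median difference of the 7 was 0.36 on ALA and 0.24 on SFA, beside -0.01 and -0.05 over all tested genes.

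The 7 genes differed among themselves in pattern. After each gene's mean over the 6 arrays was subtracted, Usp18 and Ifit2 were closest, with a root mean square distance of 0.13 on the log2 scale. Ifi27 and Rsad2 were farthest apart, at 1.44. The genes nearest to the median profile of the 7 were Fermt3 (0.075), Ppp1r9b (0.092), Tmsb4x (0.094), Nr1h3 (0.094) and Mospd3 (0.097), over 6 arrays that share the pools and their depth of signal. That profile is itself shallow, from -0.45 on Control replicate 2 to 0.44 on ALA replicate 1.

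The wider interferon pathway was described with 10 lists holding 108 tested genes. On ALA 7 of these rose and 2 fell, which is 8.33% of them beside 7.93% of all tested genes. On SFA 3 rose and 12 fell, 13.9% beside 13.8%, and the split was 6 and 8 after quantile normalization or 75th percentile centring and 6 and 9 after cyclic loess. With 1 array left out the counts were 2 to 5 on ALA and 2 to 19 on SFA. On ALA they were 4 and 2 with the first and the second Control array omitted, 4 and 2 for the ALA arrays in the same order, and 5 for either SFA array. On SFA they were 2 for either Control array, and 2 and 3 for the SFA arrays. The shares called in the pathway are near those of all genes.

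Of the ligands, 15 of 19 listed genes had a probe and 3 passed the minimum, Ifna5, Ifnz and Ifnl2. None of the 3 was called on either diet. An unadjusted p below 0.05 was reached by 0 on ALA and 2 on SFA, beside 24.7% and 31.9% of all tested genes. Ifnb1, the type I interferon of most tissue cells, read 3.36 to 4.39, and Ifng, the type II interferon, 4.10 to 5.15. Of the receptors, Ifnar1 and Ifnar2, the type I pair, were at 0.066 and -0.090 on ALA and at 0.42 and -0.043 on SFA, and neither passed. The sign of Ifnar1 on ALA turned without ALA replicate 1 (-0.068), that of Ifnar2 on ALA without ALA replicate 2 (0.0040), and that of Ifnar2 on SFA after 75th percentile centring (0.052). Ifnlr1, the type III receptor chain, read 3.95 to 4.33, below the minimum, and its partner Il10rb was at 0.47 and 0.63 without passing. Ifngr1, the ligand-binding chain for type II interferon, read 7.43 and 7.27 on Control, 8.43 and 8.02 on ALA, and 8.69 and 8.42 on SFA. It rose by 0.87 on ALA (SE 0.18, adjusted p = 0.033 by limma) and by 1.20 on SFA (SE 0.18, adjusted p = 0.0098). On omitting an array, the call on ALA was kept only without ALA replicate 2. The call on SFA was kept without Control replicate 1, SFA replicate 2 or either ALA array. Ifngr2, its partner chain, was at 0.014 and 0.08.

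Of the transducers, Stat2 read 8.14 and 8.23 on Control, 8.003 and 7.83 on ALA, and 7.53 and 7.49 on SFA, and it fell by 0.67 on SFA (SE 0.13, adjusted p = 0.020 by limma) but did not pass on ALA at -0.26. Irf9, its DNA-binding partner, was at -0.30 and -0.44 and did not pass. Irf1, a target and effector of interferon gamma, read 7.25 and 7.16 on Control, 6.71 and 6.33 on ALA, and 5.97 and 6.42 on SFA. It fell by 1.01 on SFA (SE 0.19, adjusted p = 0.021), and was at -0.69 on ALA (adjusted p = 0.078). The list of regulatory factors had 0 of 6 called on ALA and 2 lower on SFA, Irf1 and Irf3, with medians of -0.23 and -0.41. With 1 array left out, Stat2 and Irf3 on SFA were called only without an ALA array, which is not among those compared. Irf1 on SFA was called without an ALA array and without SFA replicate 2.

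Of the 39 other interferon-stimulated genes tested, 4 rose and 1 fell on ALA, and 1 rose and 3 fell on SFA. Those called were 12.8% of the list on ALA, beside 7.93% of all tested genes, and 10.3% on SFA, beside 13.8%. The list medians were 0.13 and -0.10. Isg20, which encodes an RNA exonuclease, had the largest change among them. It read 5.83 and 6.01 on Control, 7.57 and 7.63 on ALA, and 7.56 and 7.47 on SFA. It rose by 1.68 on ALA (SE 0.13, adjusted p = 0.0025 by limma) and by 1.60 on SFA (SE 0.13, adjusted p = 0.0018), and stayed called in all 6 fits with 1 array left out in both. The DNA-sensor family genes Ifi205 and Ifi203 rose by 1.39 and 0.86 on ALA, and Sp100, a nuclear body gene, by 0.67. On SFA Parp14, Gbp7 and Ddx60 were lower, at -0.89, -0.79 and -0.66. Gbp7 was not called after quantile normalization, nor Parp14 after 75th percentile centring. With 1 array left out, Ifi203 and Sp100 were called only without Control replicate 1. Ifi205 was called only without an SFA array, and Parp14, Gbp7 and Ddx60 only without an ALA array. Those SFA and ALA arrays are outside the comparisons concerned. Of the sensors, Aim2 rose by 1.05 on ALA, with a Control mean of 4.57 below the minimum, and Zbp1 fell by 1.10 on SFA. Of the Isg15 conjugation genes, Herc6, the ligase gene, fell by 1.05 on SFA, and of the inhibitors Irf2bp2 rose by 0.65 on ALA and 0.56 on SFA. With 1 array left out, Aim2 was called only without Control replicate 1, and Zbp1 without SFA replicate 1 or an ALA array. Herc6 and Irf2bp2 on SFA were called only without an ALA array. Irf2bp2 on ALA was called in none of these fits.

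Targets of interferon gamma had negative differences in 13 of 13 tested genes on ALA and in 12 of 13 on SFA, with medians of -0.53 and -0.55. Over all tested genes, 5675 of 10977 were negative on ALA and 6064 on SFA. Control lay above the other diet without overlap in 8 of the 13 on ALA and 7 on SFA, beside 28.0% and 35.7% of all tested genes. The Control duplicates lay apart for some, such as H2-Ab1 (8.53 and 7.47), Cd74 (8.77 and 7.85) and Gbp3 (7.10 and 6.12). For others, such as Iigp1, they lay close. The 13 genes were read on the same arrays and are not independent, so these counts are a description only. Only 1 of the 13 was called on ALA (7.69%, beside 7.93% of all tested genes) and 2 on SFA (15.4%, beside 13.8%). Iigp1, an immunity-related GTPase gene, read 9.71 and 9.64 on Control, 9.03 and 8.83 on ALA, and 8.97 and 8.93 on SFA. It fell by 0.74 on ALA (SE 0.13, adjusted p = 0.020 by limma) and by 0.72 on SFA (adjusted p = 0.017). On leaving out an array, the call on ALA was kept without ALA replicate 1 or either SFA array. The call on SFA was kept only without an ALA array, which is not among those compared. Irf1, which the list shares, was the other on SFA. Genes of class I antigen presentation had medians of -0.33 and -0.31. None of 13 was called on ALA, where 6 had an unadjusted p below 0.05, beside 24.7% of all tested genes. On SFA 3 were called lower, beside 7.15% of all tested genes. These were the peptide transporter Tap2 at -0.55, the immunoproteasome subunit Psmb9 at -0.59 and the class I transactivator Nlrc5 at -0.70. Under quantile normalization, 75th percentile centring and cyclic loess Tap2 lay between -0.46 and -0.45 and Psmb9 between -0.50 and -0.47, and neither was called. Of the 3 genes, only Nlrc5 stayed called there. With 1 array left out, each was called only in the fits without an ALA array, which is not among those compared.

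**Figure D3:**
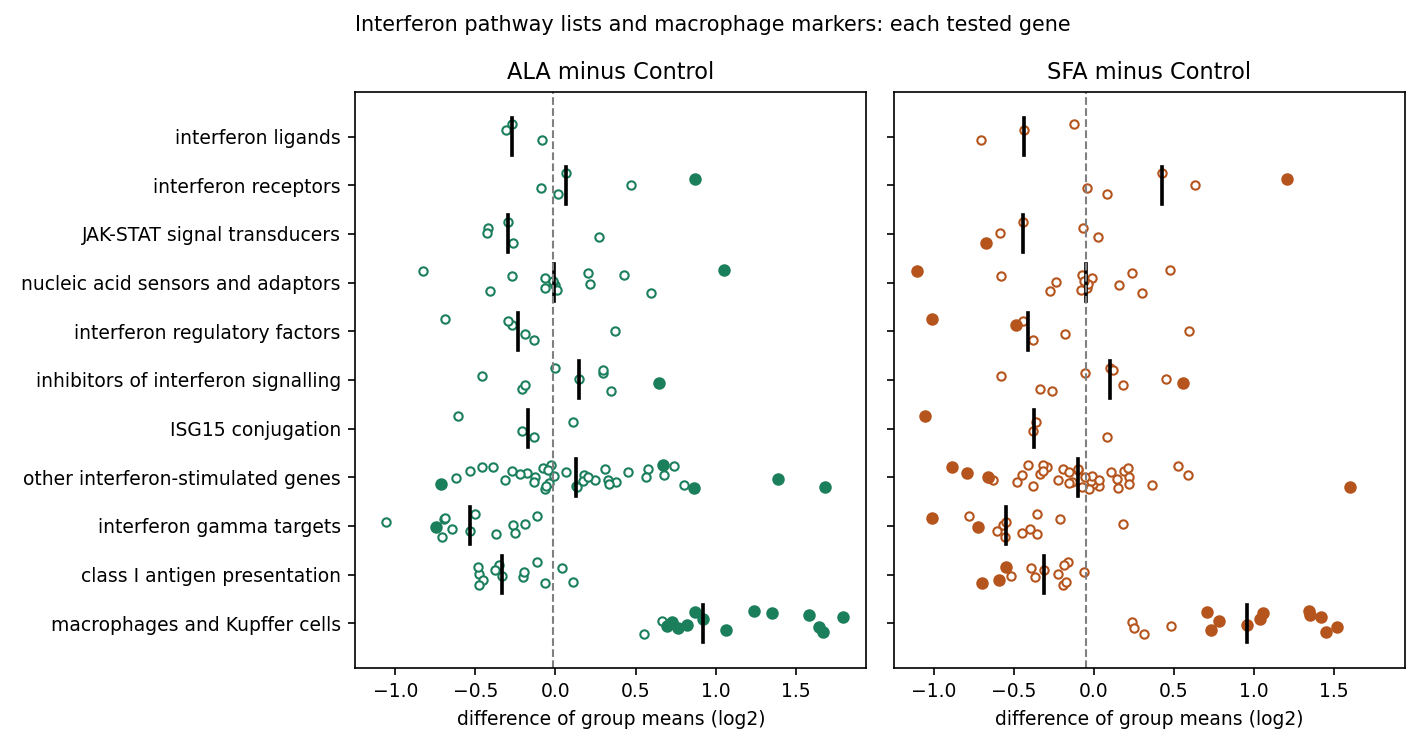
Difference from Control on the log2 scale (horizontal axis) of each tested gene of the interferon pathway lists and of the macrophage markers (rows), for ALA on the left and SFA on the right; filled points have an adjusted p below 0.05, black bars are list medians and the dashed line is the median of all tested genes. The interferon gamma targets lie left of 0 in 13 of 13 genes on ALA and 12 of 13 on SFA. The macrophage markers lie right of 0 in all 15 on both, with medians of 0.92 and 0.96. Genes of a list were read on the same arrays and are not independent.

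Markers of macrophages, stellate cells and endothelium were higher on ALA and SFA than on Control. The arrays carried a clear hepatocyte signal, with 0 of 9 hepatocyte genes called on either diet by limma. An unadjusted p below 0.05 was reached by 1 on ALA and 2 on SFA, beside 24.7% and 31.9% of all tested genes. Some read near the array maxima of 12.67 to 13.12, such as Alb (12.58 to 12.75), and others lower, such as Hnf4a (10.48 to 10.85). Whether signals near the maximum can show a change was not tested. Of 15 tested macrophage and Kupffer cell genes 13 rose on ALA and 11 on SFA, and 0 fell. On leaving out an array 4 to 8 rose on ALA and 1 to 11 on SFA. On ALA 6 and 4 rose with the first and the second Control array omitted, 5 and 8 for the ALA arrays, and 8 for either SFA array. On SFA 2 rose with the second Control array omitted, and 1 and 3 for the SFA arrays. The log2 of their summed signal was 11.44 and 11.31 on Control, 12.71 and 12.32 on ALA, and 12.32 and 12.27 on SFA. The largest differences were those of the complement genes C1qb and C1qc, the complement receptor gene Vsig4 and the scavenger receptor gene Marco, at 1.80, 1.67, 1.65 and 1.58 on ALA and 1.42, 1.45, 1.52 and 1.35 on SFA. Of 11 stellate cell and fibroblast genes 8 rose on ALA and 10 on SFA (medians 1.11 and 1.05), led by Postn (2.25 and 2.17), Acta2 (1.54 and 2.03) and Col3a1 (1.22 and 1.32), then Col1a2 (1.17) on ALA and Reln (1.09) on SFA. Of 12 endothelial genes 7 rose on each diet (medians 1.04 and 0.73), led by Lyve1 (2.67 and 1.94), Cdh5 (1.33 and 0.99) and Emcn (1.20 and 1.19), with Stab2 (1.29) among the first 4 on ALA and Kdr (0.90) on SFA. Of 5 erythroid genes Slc4a1 and Tfrc rose on both diets (2.22 and 2.17 on ALA, 2.52 and 2.51 on SFA) and Ermap fell by 1.10 on SFA. Of 3 bile duct genes Krt19 rose on ALA (0.64). The share of all tested genes called higher was 5.11% on ALA and 6.62% on SFA. The part of these cell types in the values of the interferon genes was not tested. In bulk liver, more cells of a type and more RNA per cell cannot be told apart. The plasmacytoid dendritic cell genes Siglech and Ccr9, markers of the cells that make most type I interferon in blood, read 4.43 to 4.78 and 2.72 to 3.55, below the minimum. The list also held 4 tested genes, Tcf4, Irf8, Cox6a2 and Ly6d. Of these 0 were called on ALA, and Cox6a2 was lower on SFA. Tcf4 read 6.70 to 7.12 and Irf8 6.46 to 7.30. Irf8 was at 0.37 on ALA and 0.59 on SFA without passing. None of 4 tested lymphocyte and natural killer cell genes was called on either diet, where 0 and 1 had an unadjusted p below 0.05. Of 6 neutrophil genes only Lcn2 was called on ALA (2.76), and its Control duplicates lay far apart. It read 7.63 and 9.86 on Control and 11.91 and 11.10 on ALA. On SFA Ngp and S100a9 rose (1.44 and 0.87). Both of the latter had a Control mean below the minimum of 5 and so entered the test through the other diets, as did Slc4a1 and the stellate cell gene Des.

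**Figure D4:**
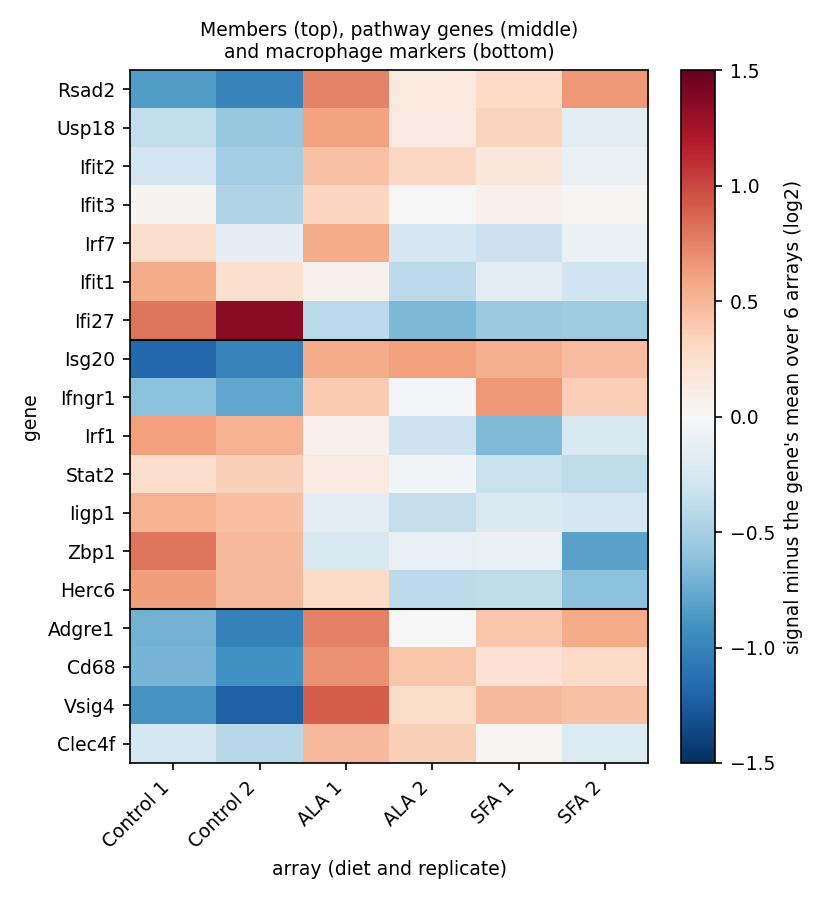
Signal minus each gene's mean over the 6 arrays, on the log2 scale (color), for the 7 tested interferon response genes, 7 genes of the wider pathway and 4 macrophage markers (rows) in each array (columns). Rsad2, Isg20, Ifngr1 and the macrophage markers are blue on both Control arrays, and Ifi27, Irf1, Iigp1 and Zbp1 are red there.

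The pools also differed in other ways. Xist read 3.76 and 4.24 on the ALA arrays, 9.46 and 9.51 on SFA, and 10.67 and 8.34 on Control, and the Y-linked gene Eif2s3y was high on both ALA arrays and on Control replicate 2 but not on the others. The sex makeup of the pools therefore differed between diets, and diet and sex cannot be told apart between ALA and SFA. Sex was not balanced against Control either. Both Control arrays had a high Xist signal and neither ALA array did, and the SFA arrays lacked the Y-linked signal of Control replicate 2. Control replicate 1 had Xist and no Y-linked signal above 4.42, and Control replicate 2 had both. Ifi27, Ifit1, Rsad2, Ifit2 and Usp18 lay on the same side of all 4 other arrays in both of them. Of all tested genes 18.5% had both Control arrays above the others and 16.0% below. The part of sex in these values was not tested. Beside 5.11% of all tested genes called higher on ALA and 6.62% on SFA, 7 of 10 genes of dividing cells rose on ALA and 9 on SFA. Of 8 fetal liver genes 5 and 7 rose, and 0 fell in either list. Of these, 6 of the 10 and 4 of the 8 had a Control mean below the minimum and entered the test through the diets where they were high, so the counts are a description only. Among dividing-cell genes Ccna2, Mki67 and Cdk1 led (2.73, 2.54 and 2.36 on ALA, 3.93, 3.14 and 3.24 on SFA). Next were Rrm2 (1.88) on ALA and Ccnb2 (3.01) on SFA. The ALA duplicates lay apart, at 6.45 and 7.89 for Ccna2, 6.87 and 7.81 for Mki67 and 6.94 and 8.82 for Cdk1. Among fetal liver genes Cyp3a16, Gpc3, Igf2bp3 and Mest led, at 3.80, 3.33, 2.46 and 1.79 on ALA and 5.15, 3.96, 2.77 and 2.03 on SFA. Their part in the interferon gene values was not tested.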

How the data were processed

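The deposited table holds log2 signals of 35556 probes for 6 arrays, which, per the submitters' processing notes, the authors made using RMA and Partek 6.6. The log base is inferred from the values, and background and summary settings are not given in the sources used here. Of the probes, 21789 had 1 symbol in the platform annotation, of which 21698 were found by Entrez identifier in RefSeq (GRCm38.p6). The 1621 probes with several symbols and 12146 without a listed gene were left out. The brightest probe stood for a gene, and the 10977 genes with a mean of at least 5 were tested.

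A mean per diet was fitted to all 6 arrays with limma 3.58.1 in R 4.3.3, leaving 3 residual degrees of freedom, moderated by empirical Bayes and adjusted by Benjamini-Hochberg over all tested genes. Tests are two-sided. The procedure was tested on simulated data. Scaling, signal minimum, probe choice, variance prior, the arrays fitted and a replicate block were varied. When an array is left out, the lone array of its diet is assumed to vary like the others, and the genes tested stay those chosen on 6 arrays.

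The genes, lists and tests were chosen with earlier results of these data known. All 9 genes are named. Of each list the called genes, or the 4 with the largest difference where more were called, are named, as are the interferon receptors, Stat2, Irf9 and Irf1 whatever their result, and the 5 genes nearest to the median profile. Cmpk2, Ifi27l2a, Ifit3b, Mx2, Des, Irf8, H2-Ab1, Cd74 and Gbp3 were named after their values were seen. So were the marker genes Siglech, Ccr9, Tcf4, Ly6d, Alb and Hnf4a. With 2 arrays a diet, the smallest p of a permutation test would miss any usual threshold, so none was run.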

Additional observations from a re-analysis of the deposited data

How the results depend on the processing

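Ifi27 kept its direction and call under all 15 alternatives in both comparisons with Control. The number of the 7 genes called ranged, with 1 array left out, from 1 to 3 on ALA, from 1 to 2 on SFA and from 1 to 2 in the F test. The replicate numbers do not pair the arrays (correlation of the duplicates' differences between diets, over genes, -0.030, -0.0040 and 0.023). With a replicate block 4 of the 7 were called on ALA, 3 on SFA (Usp18 and Ifit1 were added, at an adjusted p of 0.026 and 0.044 by limma) and 0 between ALA and SFA, and over all genes 719, 1232 and 0.

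Over all tested genes the count called on ALA was 871, and 448 with only the diets compared. With 1 array left out it was 267 to 475 on ALA, 245 to 1428 on SFA, 318 to 988 in the F test and 0 to 36 between ALA and SFA. Between ALA and SFA the main count of 168 became 68 after quantile normalization, 100 after 75th percentile centring, 76 after cyclic loess, 32 with no minimum, 293 with a minimum of 6, 421 with an intensity trend and robust prior and 11 with only the diets compared. The cause was not tested. The share of calls that were higher on SFA was 48.1%, and 64.7%, 66.1% and 62.0% under the 3 scalings, and between ALA and SFA it was 71.4%, and 50.0%, 42.0% and 55.3%. Centring on the 75th percentile moved the median of all genes by -0.11 between ALA and SFA.

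With 1 array left out, pathway calls ran from 2 to 5 on ALA and 2 to 19 on SFA, and macrophage calls from 4 to 8 and 1 to 11. Pathway calls on ALA, 9 in all, became 5 with no minimum or with only the diets compared, and 14 with the trend and robust prior. Macrophage calls on ALA became 8 with only the diets compared. Signs turned for differences that did not pass. Between ALA and SFA, Ifi27 was at -0.035 after quantile normalization and -0.10 after 75th percentile centring, and Ifit1 at -0.077, -0.039 and -0.029 under the 3 scalings. With 1 array left out, differences between ALA and SFA ran from -0.13 to 0.14 for Ifi27 (-0.000215 without SFA replicate 1), from -0.16 to 0.30 for Ifit1, from -0.047 to 0.29 for Ifit3, from -0.030 to 0.77 for Irf7 and from -0.33 to 0.27 for Rsad2 (0.15 without SFA replicate 2). On SFA against Control, Ifit3 ran from -0.00445 to 0.49. On ALA against Control, Irf7 ran from -0.31 to 0.49 (-0.11 without Control replicate 2), Ifnar1 from -0.068 to 0.20 and Ifnar2 from -0.18 to 0.0040, and Ifngr2 was at -2.5e-05 after 75th percentile centring. Ifnar2 on SFA was at 0.052 there. The number of arrays limits the precision, and Ifit2 and Mx1 read close to background.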
